A study of Danio rerio with 30 samples.

Results

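This account covers the RNA of isl1a mutant zebrafish larvae and their siblings 3 h after the drug neomycin, measured in 6 of the 30 samples of the series. Those 6 are the 3 mutant and the 3 sibling RNA-seq libraries labelled for that time, out of 12 RNA-seq libraries in all. The series also has 18 ATAC-seq samples, which were not used. All larvae, of both genotypes, were 5 days post fertilization, came from the isl1apsi97/she:mcherry line and had been exposed to 300 uM neomycin for 30 min. mCherry-positive cells, labelled as neuromast cells of the posterior lateral line, were sorted for sequencing. The psi97 mutants carry the mutant isl1a allele, and the sibling label does not say whether wild-type and heterozygous larvae were mixed. The labels give neither the sequence that drives the reporter nor the number of larvae or clutches behind a library. The 6 libraries in homeostasis, taken from mutants and siblings without the drug, enter where a difference at 3 h is set beside the one before treatment.

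The lateral line senses water flow through neuromasts, small organs in the skin in which mechanosensory hair cells sit among support cells. Neomycin is an aminoglycoside antibiotic that kills these hair cells, and support cells then divide and replace them within days. The first hours after the loss are a period of stress and injury signalling in the surviving support cells. isl1a encodes a LIM homeodomain transcription factor, a family of DNA-binding proteins known for setting cell identity in neurons, heart and pancreas. The title of the series names isl1a in connection with the start and the end of lateral line regeneration, and the comparison of mutants with siblings at 3 h bears on the early part.

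The libraries held 23918226, 25621057 and 27596575 counts in genes in mutants and 27387561, 30354161 and 27680299 in siblings. Sibling replicate 2 stood apart from the other 5. The first principal component of log2 CPM (counts scaled to a common library depth) held 46.63% of the variance, with mutants at 63.69, 20.92 and 64.06 and siblings at −11.32, −116.7 and −20.67. The second held 28.73%, with mutants at 10.38, 58.35 and 17.29 and siblings at −71.95, 42.66 and −56.72. There sibling replicate 2 lay on the side of all 3 mutants, nearest to mutant replicate 2. Sibling replicate 2 had 27.44% of its gene counts in its 50 most abundant genes, against 17.67% to 21.44% in the others. Its share of ambiguous reads was 4.49%, against 2.69% to 3.15%. Counts of called genes are therefore also given without that library. Deviations from the group means correlated most between the libraries numbered 2 (0.501). Among libraries 1 and 3 they correlated positively for the same number (0.35 and 0.227) and for different numbers (0.179 and 0.076). Pairing by number is therefore not shown. Counts of gene lists at 3 h that a replicate block moves are given with it too, as an alternative.

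The targeted gene followed the labels. ISL1 (ENSDARG00000004023), taken here as isl1a because isl1b has an entry of its own, had 6, 35 and 0 counts in mutants and 3996, 6634 and 4591 in siblings. In CPM that was 0.244, 1.43 and 0 in mutants and 129, 265 and 153 in siblings, so the genotypes were far apart. The mutant libraries together held 41 counts. Scaled for depth, the siblings' level was 331 times that of the mutants (95% interval of the ratio for counting error, 244 to 461). The call (adjusted p = 0.0087 by edgeR's quasi-likelihood test, as for all adjusted p below) ended without mutant replicate 1 (0.069), which leaves the libraries with 35 and 0 counts. It was 0.0011 without sibling replicate 2. The paralog isl1b had 9 counts in mutants and 3 in siblings and was not tested. Its relative ISL2 (ENSDARG00000003971) had 5.29, 7.88 and 6.27 CPM in mutants and 8.23, 7.54 and 11.7 CPM in siblings, groups that overlapped, and was not called (log2 fold change −0.50, adjusted p = 0.41). A second ISL2 gene (ENSDARG00000053499) stayed under 1.5 CPM in all 6 libraries and was not called (0.49). Among 27 tested genes of LIM homeodomain factors and their cofactors, ISL1 was the 1 called, and the list's median log2 fold change was −0.68. That list had 4 lower and 1 higher without sibling replicate 2, and 6 and 1 with the replicate number as a block.

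Of 20641 genes tested, 447 were higher in mutants, which is 2.17%, and 178 were lower, which is 0.862%, at an adjusted p under 0.05. Such genes are said below to be called, or to have risen or fallen. The median log2 fold change, mutant over sibling, was 1.91 among those higher and −2.13 among those lower, while the median of all tested genes was −0.07 and 45.4% of them were above 0. In every called gene the CPM of the genotypes did not overlap, a pattern that 14.5% of all tested genes showed upward and 12.3% downward. When sibling replicate 2 was left out, 1189 of 21370 genes were higher (5.56%) and 792 lower (3.71%), and those hold all 447 and all 178. Leaving out another library lowered the counts, to 87, 108 and 85 higher and 6, 13 and 10 lower without mutant replicate 1, 2 and 3, to 235 and 103 without sibling replicate 1 and to 155 and 56 without sibling replicate 3. With the replicate number as a block, 1384 of the same 20641 genes were higher and 962 lower. List counts given below with the block are to be read against that larger share. The biological coefficient of variation, edgeR's measure of spread between replicates, was 36.5% over the 6 libraries and 26.5% without sibling replicate 2. The 105 called genes that the naming rule selects, nearly all described below, were also called without sibling replicate 2 and with the block. So were all 447 and all 178, and for genes named by rank the call without sibling replicate 2 was a condition. Of the 105, 36 kept the call whichever library was left out.

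**Figure D1:**
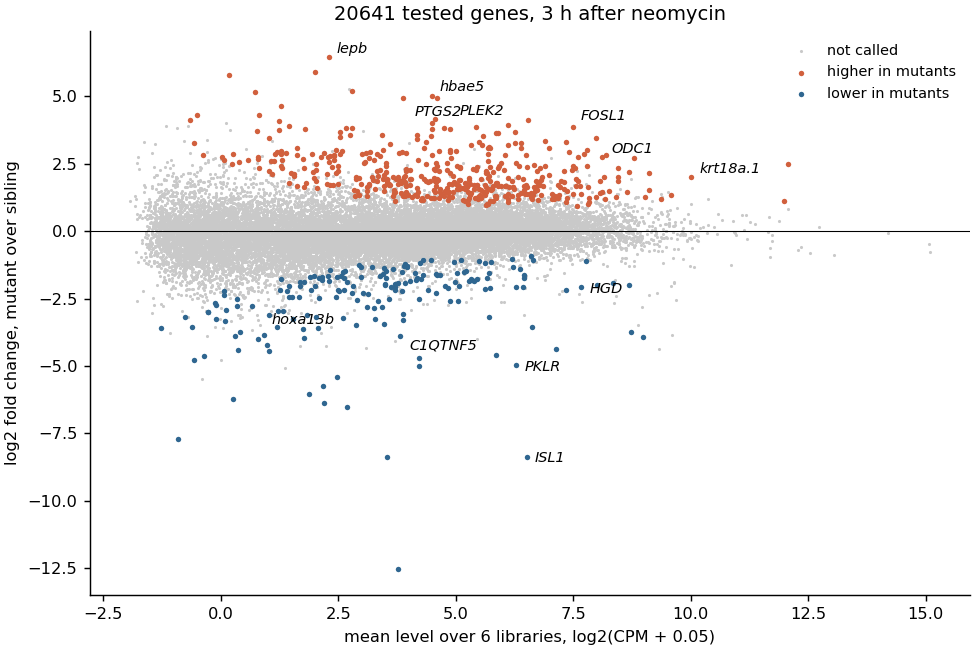
Each point is 1 of 20641 tested genes, with its mean level over the 6 libraries on the x axis as log2(CPM + 0.05) and its log2 fold change, mutant over sibling, on the y axis. Orange points are the 447 genes higher in mutants and blue points the 178 lower. The lowest point is zgc:92590, which had no count in any mutant library, so that its fitted value depends on the prior count.

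PTGS2, ODC1 and PLEK2 were among the genes with the smallest adjusted p upward, a value that many genes nearly shared. PTGS2 (ENSDARG00000010276), the inducible enzyme that starts prostaglandin synthesis, had 81, 77.1 and 85.6 CPM in mutants and 5.91, 5.67 and 5.04 in siblings. Every mutant library was more than 10 times above every sibling library, the log2 fold change was 3.87 ± 0.23 (SE), and the adjusted p was 0.0024. ODC1, the first enzyme of polyamine synthesis, had 499, 510 and 449 CPM in mutants and 66.1, 86 and 62.7 CPM in siblings, a log2 fold change of 2.76 ± 0.24. PLEK2, a pleckstrin protein that acts on membrane-bound actin, had 209, 154 and 163 CPM in mutants and 11.3, 6.47 and 12.8 CPM in siblings (4.11 ± 0.34). The first 15 genes upward by adjusted p (0.0024 for each) also hold ARRDC3 (ENSDARG00000036028), an arrestin-related regulator of receptor traffic, with a log2 fold change of 3.44. They hold bmf2, a zebrafish member of the death-promoting branch of the Bcl2 family, with 32.9, 32 and 34.3 CPM in mutants and 2.42, 2.75 and 4.1 CPM in siblings. They hold il17rel, named as a receptor-like gene of the interleukin 17 family, with 33.6, 54.6 and 33.9 CPM in mutants and 3, 3.79 and 3.9 CPM in siblings. All 15 kept their calls in each of the 6 fits with a library left out.

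**Figure D2:**
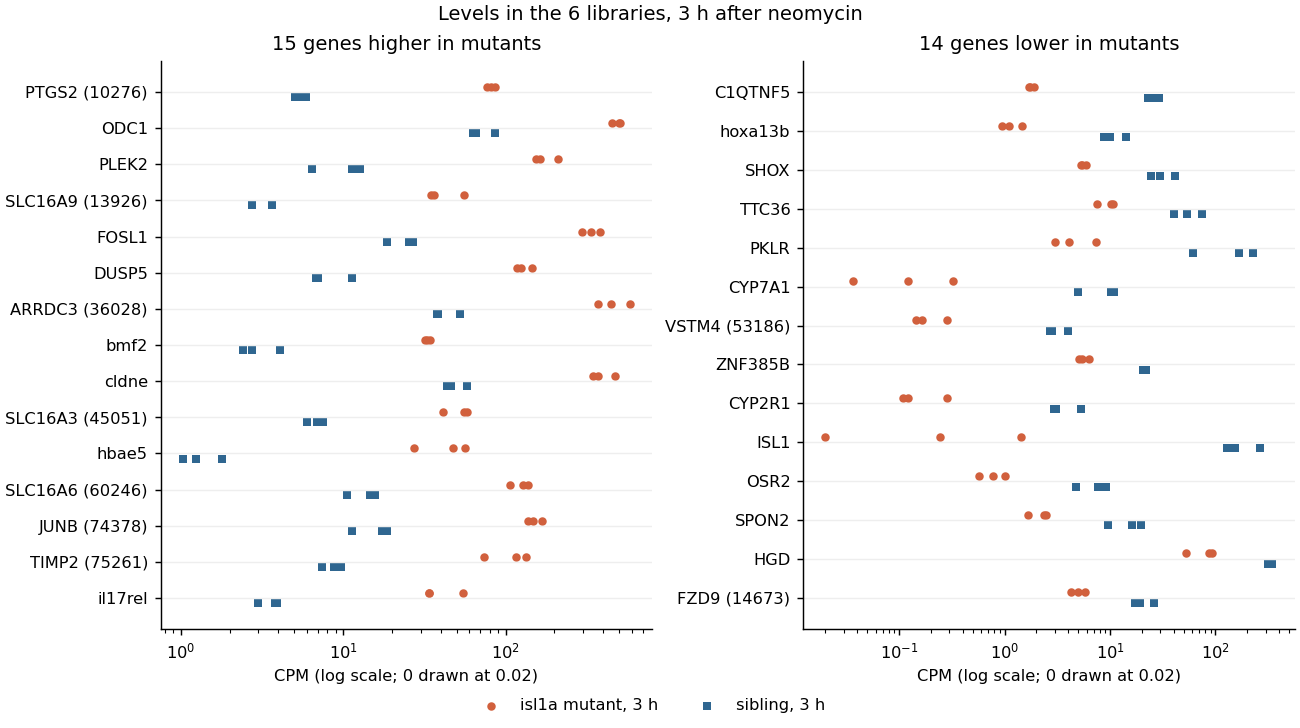
CPM of the 15 genes higher (left) and 14 of the 15 lower (right) in mutants with the smallest adjusted p, on a log axis. Orange circles are the 3 mutant libraries and blue squares the 3 sibling libraries. Symbols shared by several gene IDs carry the last 5 digits of the Ensembl ID. The groups do not overlap in any gene shown, which was a condition of their selection. In ISL1 the mutant libraries range from 0 to 1.43 CPM against 129 to 265 CPM in siblings.

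AP-1, the dimer of Fos and Jun proteins that switches on genes within minutes to hours of injury, had members among the clearest gains. FOSL1, a Fos-related subunit, had 383, 296 and 337 CPM in mutants and 26.8, 18.6 and 25.3 CPM in siblings, with a log2 fold change of 3.84 ± 0.27 (adjusted p = 0.0024). JUNB (ENSDARG00000074378), a Jun subunit, had 167, 138 and 149 CPM in mutants and 18.5, 17.4 and 11.4 CPM in siblings (3.26 ± 0.28, 0.0024). The groups lay apart for both, and also for FOSL2, with 123, 78.8 and 118 CPM in mutants and 18.9, 17.8 and 18.7 CPM in siblings (2.53, 0.0037). ATF3, a stress-induced partner of these proteins, had 197, 170 and 157 CPM in mutants and 27.8, 49.9 and 34.7 CPM in siblings (2.22, 0.0087), a call that ended without mutant replicate 1 (0.059). Of 20 tested AP-1 and related genes, 8 were higher and 1 lower, with a median log2 fold change of 1.15. The 1 lower was FOSB, with 10.9, 8.5 and 7.53 CPM in mutants and 21.3, 25.7 and 19.2 CPM in siblings (−1.30, 0.039). The counts were 10 and 1 without sibling replicate 2 and 10 and 1 with the block. The 8 became 3, 5 and 4 without mutant replicates 1, 2 and 3 and 6 and 5 without sibling replicates 1 and 3, and FOSB was not called in any of those 5 fits.

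Other immediate early genes, which respond to signals without new protein synthesis, were called upward in 12 of 33 tested members, with none downward and a median of 0.94. CCN2, a secreted matrix protein and target of the Yap pathway, had 118, 69.6 and 92.7 CPM in mutants and 13.3, 8.3 and 10.6 CPM in siblings (log2 fold change 3.12 ± 0.31, adjusted p = 0.0034). GADD45B (ENSDARG00000013576), a stress sensor, had 55.9, 49.3 and 51.2 CPM in mutants and 7.68, 7.74 and 3.97 CPM in siblings (3.01 ± 0.31, 0.0042). The zinc finger factor egr1 had 154, 199 and 175 CPM in mutants and 49.5, 44.1 and 49.9 CPM in siblings (1.88, 0.0066), and EGR3 had 12, 9.03 and 9.13 CPM in mutants and 1.13, 1.2 and 1.87 CPM in siblings (2.84, 0.0067). All mutant libraries exceeded all sibling libraries for these 4 genes. The call of egr1 ended without mutant replicate 3 (0.053) and that of EGR3 without mutant replicate 1 (0.05). The 12 became 4, 5 and 4 without the mutant replicates in order and 7 and 6 without sibling replicates 1 and 3, and 18 with 2 lower without sibling replicate 2. With the block 17 were higher and 1 lower.

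Dual specificity phosphatases switch off the MAP kinases upstream of these genes. In a list of them and of Sprouty-type inhibitors, 3 of 19 tested members were higher. DUSP5, a phosphatase of nuclear Erk, had 125, 145 and 117 CPM in mutants and 6.78, 11.4 and 7.01 CPM in siblings (log2 fold change 3.95 ± 0.30, adjusted p = 0.0024). DUSP4 had 56, 57.8 and 59.4 CPM in mutants and 15, 15.7 and 20.6 CPM in siblings (1.76, 0.009), and DUSP1 had 432, 370 and 382 CPM in mutants and 158, 151 and 132 CPM in siblings (1.43, 0.016). Mutant libraries lay above sibling libraries throughout. DUSP4 lost its call without any 1 mutant library and DUSP1 also without sibling replicate 3 (up to 0.072 and 0.1), which left 1 call without each mutant library. 6 were higher and 1 lower without sibling replicate 2, and 6 higher with the block. In the Fgf and Egf families, whose receptors feed the same kinases, calls were few. Of 14 Egf family ligands and receptors none was called (1 higher without sibling replicate 2, 4 with the block), and the receptor ERBB2 had 107, 80.4 and 112 CPM in mutants and 76.1, 41.8 and 81.4 CPM in siblings, values that overlapped (adjusted p = 0.34). In the Fgf list 1 of 32 was called, the ligand gene FGF10 (ENSDARG00000030932), lower with 64.2, 63.8 and 65.3 CPM in mutants and 143, 140 and 121 CPM in siblings (−1.06, 0.034). That call ended without any 1 library other than sibling replicate 2 (up to 0.22), and without sibling replicate 2 there were 6 Fgf genes lower and 1 higher, against 6 lower with the block.

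In the Jak-Stat3 pathway, through which leptin and the interleukin 6 family signal, called genes included both leptin ligands and feedback inhibitors. The leptin gene lepb had 16.5, 5.96 and 6.7 CPM in mutants, and in siblings 4, 5 and 0 counts, or 0.129, 0.2 and 0 CPM (log2 fold change 6.45 ± 0.82, adjusted p = 0.0087). lepa had 14.1, 12.7 and 13.2 CPM in mutants and 0.0646, 0.718 and 0.334 CPM in siblings (5.18 ± 0.64, 0.0078). Both leptin genes were near the detection limit in siblings and well above it in all 3 mutant libraries. SOCS3, the inhibitor that Stat3 itself induces, is the symbol of a pair of genes that both rose. The first (ENSDARG00000026611) had 312, 272 and 331 CPM in mutants and 58.6, 52.4 and 59.4 CPM in siblings (2.43, 0.0028). The second SOCS3 gene (ENSDARG00000025428) had 154, 149 and 174 CPM in mutants and 30.2, 20.4 and 16.6 CPM in siblings (2.83, 0.0037). These 4 kept their calls in all 6 fits with a library left out. Of 48 tested pathway members, 10 were higher and 1 lower, with a median of 0.34. The 1 lower was CISH, a Stat5-induced inhibitor in mammals, with 12.5, 10.8 and 11 CPM in mutants and 23.9, 30.9 and 23.7 CPM in siblings (−1.19, 0.038). The 10 fell to 4 or 5 when any 1 library other than sibling replicate 2 was left out, with CISH not called in those fits. With sibling replicate 2 left out, 15 were higher and 1 lower, with a median of 0.11, and the block gave 16 and 1.

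NF-kB genes, cytokines and chemokines held 3 higher members of 45 and none lower. IRAK3, which dampens Toll-like receptor signals, had 32.8, 35.1 and 35.5 CPM in mutants and 10.1, 9.58 and 8.71 CPM in siblings (log2 fold change 1.87 ± 0.22, adjusted p = 0.0066). The tumour necrosis factor receptor tnfrsf1a had 112, 122 and 113 CPM in mutants and 27.3, 34.2 and 35 CPM in siblings (1.84, 0.0068). cxcl8b.1, of the family of neutrophil-attracting chemokines, had 9.03, 7.03 and 7.97 CPM in mutants and 0.71, 1.84 and 0.667 CPM in siblings (2.91, 0.018). The libraries of each genotype were tightly grouped for the first pair. IRAK3 was not called without mutant replicate 3 (0.054), tnfrsf1a without mutant replicate 1 or 3 (up to 0.054), and cxcl8b.1 without any 1 mutant library or sibling replicate 3 (up to 0.095), which left 1, 2, 0 and 2 calls. The count of higher members was 8 without sibling replicate 2 and 10, with 1 lower, with the block.

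In the prostaglandin pathway, the called genes were synthesis enzymes that rose and a receptor that fell, among others. The other PTGS2 gene (ENSDARG00000004539) had 50.3, 32 and 40 CPM in mutants and 8.52, 5.11 and 9.14 CPM in siblings (log2 fold change 2.42 ± 0.31, adjusted p = 0.009). PTGIS, the synthase of prostacyclin, had 47.4, 47.6 and 53.7 CPM in mutants and 17.6, 16.6 and 16.2 CPM in siblings (1.56, 0.01). PTGER4 (ENSDARG00000059236), a receptor for prostaglandin E2, had 1.42, 1.96 and 1.3 CPM in mutants and 4.91, 8.3 and 5.91 CPM in siblings (−2.02, 0.026), the 1 lower member, while 5 of 27 were higher. The second PTGS2 gene lost its call without mutant replicate 1 or 3 (up to 0.06), and PTGIS and PTGER4 without any 1 mutant library or sibling replicate 3 (up to 0.082 and 0.15). The 5 became 1, 2 and 1 without the mutant replicates in order and 2 without sibling replicate 3, and stayed at 5, with 2 lower, without sibling replicate 2. The median of the list was −0.31. With the block 6 members were higher and 2 lower.

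Matrix proteases and their inhibitors, which cut and rebuild the matrix around wounded epithelium, were higher in 7 and lower in 2 of 30 members. TIMP2 (ENSDARG00000075261), an inhibitor, had 134, 74 and 116 CPM in mutants and 9.65, 7.38 and 8.84 CPM in siblings (log2 fold change 3.64 ± 0.31, adjusted p = 0.0024). MMP9, a gelatinase, had 108, 41.6 and 97.1 CPM in mutants and 8.65, 7.1 and 8.91 CPM in siblings (3.32 ± 0.39, 0.0066), so that mutant replicate 2 was lower than the other mutants yet above every sibling. The collagenase gene mmp13a had 8.9, 17.6 and 8.59 CPM in mutants and 0.936, 0.279 and 1.27 CPM in siblings (3.80, 0.015). mmp13a lost its call without any 1 mutant library (up to 0.067). The 2 lower were the stromelysin genes MMP11 (ENSDARG00000026325), with 4.31, 1.39 and 4.85 CPM in mutants and 24.6, 14.1 and 22 CPM in siblings, and mmp11b (log2 fold changes −2.52 and −1.74). The counts were 8 and 4 without sibling replicate 2, without each mutant library 2 and 0, and without sibling replicates 1 and 3 they were 4 and 5 higher and 0 lower. The block gave 10 higher and 3 lower. Fibroblast markers, described below with the other cell types, were also lower in mutant replicate 2 and sibling replicate 2, and their part in these differences was not tested.

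Some genes of the epithelium's own structure were called as well. Claudins seal the tight junctions between epithelial cells, and cldne had 372, 472 and 343 CPM in mutants and 43.6, 58.2 and 46.3 CPM in siblings (log2 fold change 3.00 ± 0.26, adjusted p = 0.0024). The related cldnf had 50.7, 75.8 and 45.3 CPM in mutants and 10.8, 13 and 9.38 CPM in siblings (2.37, 0.0069), and cldn7a had 5, 7.03 and 4.31 CPM in mutants and 0.775, 0.559 and 0.601 CPM in siblings (3.07, 0.0078). krt18a.1, a simple-epithelium keratin, had 1561, 1524 and 1851 CPM in mutants and 401, 442 and 379 CPM in siblings (2.01, 0.0057), and its call ended without mutant replicate 3 (0.053). All 3 claudins held their calls whichever library was left out. Of 62 keratin, junction, integrin and laminin genes, 9 were higher and 1 lower, with a median of 0.47. The 1 lower was an ITGB1 gene (ENSDARG00000022689), an integrin subunit, with 3.09, 4.62 and 6.56 CPM in mutants and 20.1, 12.8 and 26.9 CPM in siblings (−2.07, 0.033). The 9 became 4, 4 and 3 without the mutant replicates in order, 6 and 5 without sibling replicates 1 and 3, and 20 without sibling replicate 2, where 3 were lower, while the block gave 23 and 4.

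Regulators of actin and the cell membrane, the machinery of shape change and migration, were higher in 12 of 82 members and lower in none, with a median of 0.52. Beside PLEK2, the calponin CNN3 (ENSDARG00000099510) had 306, 309 and 291 CPM in mutants and 79.4, 80.9 and 90.8 CPM in siblings (log2 fold change 1.85 ± 0.21, adjusted p = 0.0055). CNN2, another calponin, had 548, 562 and 582 CPM in mutants and 118, 165 and 137 CPM in siblings (2.01, 0.006). PDLIM1, which links actin to kinases, had 167, 164 and 181 CPM in mutants and 47, 61.4 and 46.4 CPM in siblings (1.72, 0.0091). Replicates lay close together in these 3 genes and the genotypes did not overlap. The call of CNN2 ended without mutant replicate 3 (0.051) and that of PDLIM1 without any 1 mutant library or sibling replicate 3 (up to 0.075). The 12 became 3, 4 and 2 without the mutant replicates in order, 5 and 3 without sibling replicates 1 and 3, 26 without sibling replicate 2 and 29, with 1 lower, with the block.

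Stress programmes also held called genes. In the integrated stress response, which slows translation and induces amino acid supply, 7 of 42 were higher and none lower, with a median of 0.59. CEBPB, a transcription factor of stress and inflammation, had 460, 302 and 366 CPM in mutants and 47.9, 66.5 and 40.1 CPM in siblings (log2 fold change 2.87 ± 0.30, adjusted p = 0.004). ppp1r15b, a subunit of the phosphatase that restarts translation, had 53.2, 39.8 and 51.6 CPM in mutants and 7.59, 10.6 and 6.74 CPM in siblings (2.54 ± 0.27, 0.0047). TRIB3, a pseudokinase induced by this response, had 308, 211 and 263 CPM in mutants and 64.9, 44.7 and 58.9 CPM in siblings (2.21, 0.0066). These 3 genes kept their calls without each library in turn, and MTHFD1L, a mitochondrial folate enzyme (1.99, 0.013), lost its call without mutant replicate 1 or 3 or sibling replicate 3 (up to 0.081). The 7 became 3, 5 and 3 without the mutant replicates in order, 4 and 5 without sibling replicates 1 and 3, 18 without sibling replicate 2, where 1 was lower, and 16, also with 1 lower, with the block.

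Heat shock proteins and co-chaperones, which refold damaged proteins, were higher in 7 of 43 and lower in none. The co-chaperone BAG3 had 16.3, 16.2 and 22.2 CPM in mutants and 4, 4.27 and 5.97 CPM in siblings (log2 fold change 1.94, adjusted p = 0.015). BAG2, of the same family, had 23.5, 21.7 and 20.6 CPM in mutants and 5, 8.18 and 6.14 CPM in siblings (1.77, 0.017). The stress-inducible hsp70l had 17.2, 24 and 35.5 CPM in mutants and 3.03, 6.03 and 6.47 CPM in siblings (2.3, 0.024), and the small heat shock gene hspb6 rose as well (2.38, 0.025). Every mutant value exceeded every sibling value in these 4, yet none of the 7 calls in the list was left without any 1 mutant library, and 2 and 1 were left without sibling replicates 1 and 3 (adjusted p up to 0.12). In the fit that leaves out sibling replicate 2, 12 were higher and 1 lower, as with the block. Of 31 oxidative stress genes of the Nrf2 pathway, SQSTM1, a selective autophagy receptor, was the 1 called (1.28, 0.039), and of 22 p53 genes the 1 called was GADD45A (ENSDARG00000104571; 1.16, 0.027). Both calls ended without any 1 library other than sibling replicate 2 (up to 0.16 and 0.15), and without that one 3 were higher in each list. With the block the counts were 2 higher and 2 lower for Nrf2 and 5 higher for p53. The block called 1384 of all 20641 tested genes higher and 962 lower, so the Nrf2 counts are not read as a shift of that list. None of 28 tested genes in the list of Bcl2 family members and caspases was called. Of the 28, 24 had a positive log2 fold change, with a median of 0.44. The Bcl2 family gene bmf2, called as described above, is outside that list. mcl1a, a survival protein, had 324, 327 and 299 CPM in mutants and 144, 282 and 135 CPM in siblings, where sibling replicate 2 lay near the mutants (0.76, 0.24). Without it mcl1a was higher (1.16, 0.0043), as were 5 others, and with the block 4 of the list were higher.

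Metabolic genes of low oxygen and sugar use were called upward in 14 of 71 members and downward in 3, with a median of 0.46. SLC16A9 (ENSDARG00000013926), of the monocarboxylate transporter family, had 55.1, 36.4 and 34.7 CPM in mutants and 2.74, 3.63 and 2.77 CPM in siblings (log2 fold change 3.79 ± 0.30, adjusted p = 0.0024). SLC16A3 (ENSDARG00000045051), the lactate exporter induced by hypoxia, had 55.9, 41.1 and 58.2 CPM in mutants and 6.04, 7.5 and 6.91 CPM in siblings (2.92 ± 0.25, 0.0024). ADM is the symbol of a pair of adrenomedullin genes, which encode a hypoxia-induced peptide hormone. One ADM gene (ENSDARG00000015263) had 183, 122 and 120 CPM in mutants and 11, 14.8 and 7.94 CPM in siblings (3.66, 0.0028), and the other (ENSDARG00000069027) had 225, 237 and 192 CPM in mutants and 23.1, 28.1 and 13.9 CPM in siblings (3.33, 0.003). Mutant libraries were above sibling libraries by wide margins in all 4, and their calls held with each library left out. SLC16A6 (ENSDARG00000060246), a further transporter of the family outside this list, also rose (3.18, 0.0024).

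Among the 3 lower metabolic genes was PKLR. This pyruvate kinase of liver and red cells had 3.01, 7.31 and 4.09 CPM in mutants and 60.7, 226 and 166 CPM in siblings (log2 fold change −4.97 ± 0.59, adjusted p = 0.0066). Its call ended without mutant replicate 3 (0.053). Liver and plasma markers were lower in mutants in part as well: their summed level was 1564, 3368 and 1953 CPM in mutants and 1837, 7656 and 5227 CPM in siblings, and their part in this difference was not tested. The 14 and 3 became 6 and 1, 7 and 1, and 5 and 0 without mutant replicates 1, 2 and 3, 9 and 1 without sibling replicate 3, 24 and 3 without sibling replicate 2, and 23 and 3 with the block.

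Of 28 cholesterol synthesis genes, 25 had a positive log2 fold change, against 45.4% of all tested genes. The list median was 0.81, and 3 were called. Other lists were as one-sided, such as that of Bcl2 family members and caspases, with 24 of 28 positive. The list as a whole was not tested. insig1, the sterol-regulated brake on the pathway, had 72.8, 88 and 85.8 CPM in mutants and 15, 21.1 and 19.7 CPM in siblings (2.14 ± 0.24, adjusted p = 0.0052). HMGCS1, an early enzyme, had 104, 117 and 115 CPM in mutants and 41.8, 26.1 and 41.7 CPM in siblings (1.62, 0.019). The low density lipoprotein receptor gene ldlrb had 11.3, 19.1 and 20 CPM in mutants and 6.13, 4.19 and 5.61 CPM in siblings (1.66, 0.034). The genotypes did not overlap in these 3 genes or in 17 of the 28 in all. insig1 kept its call in all 6 fits, HMGCS1 lost it without any 1 mutant library or sibling replicate 3 (up to 0.11) and ldlrb without any 1 library other than sibling replicate 2 (up to 0.17). The 3 became 1 in each of those fits but 2 without sibling replicate 1, and rose to 13 without sibling replicate 2 and 11 with the block.

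**Figure D3:**
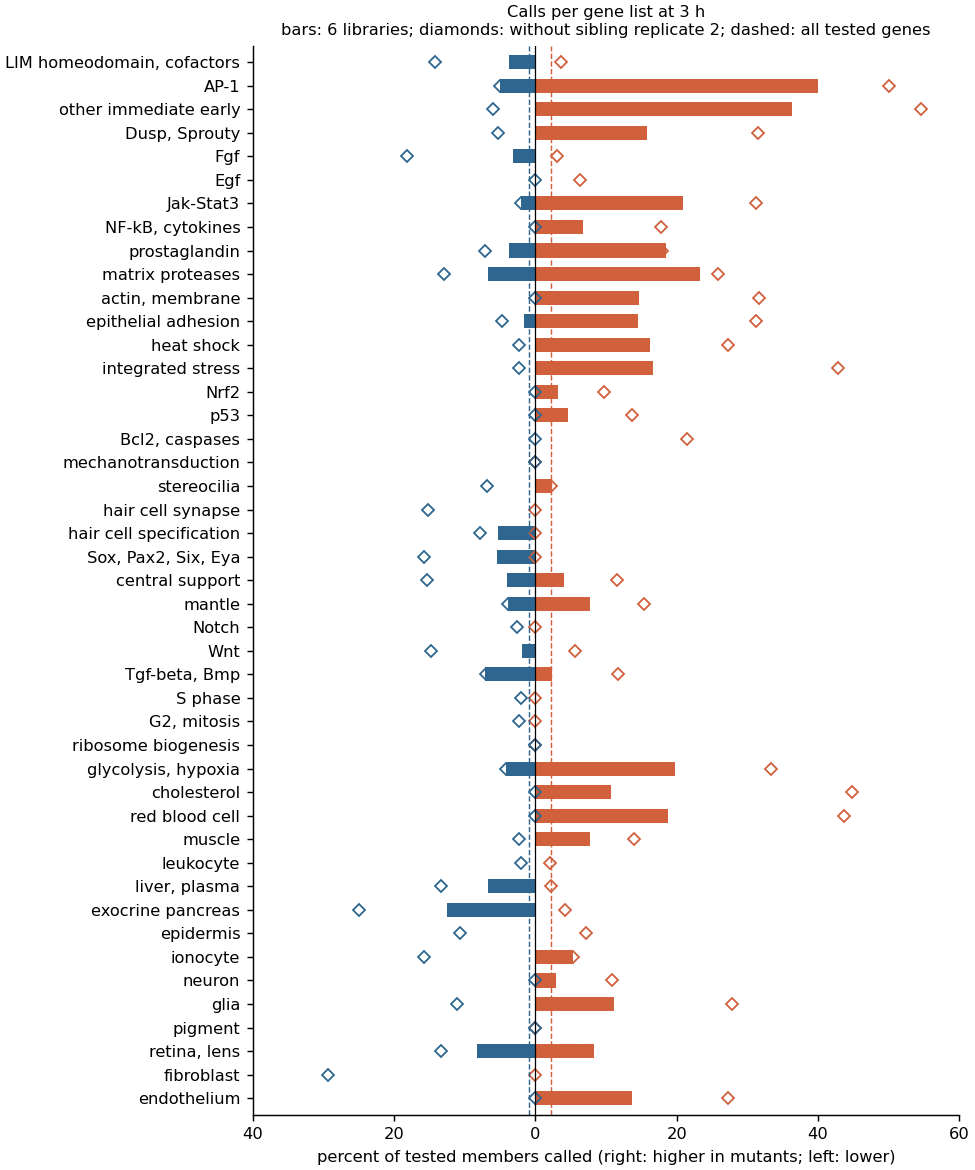
Percent of the tested members of each of 45 gene lists called at 3 h. Bars to the right are members higher in mutants and bars to the left members lower, over 6 libraries, and open diamonds give the same without sibling replicate 2. Dashed lines are the shares over all tested genes, 2.17% higher and 0.862% lower. AP-1 has 8 of 20 members higher, and cholesterol synthesis has 3 of 28 with all libraries and 13 without sibling replicate 2.

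Downward, the gene with the smallest adjusted p among those named was C1QTNF5, which encodes a secreted C1q-domain protein. It had 1.91, 1.76 and 1.7 CPM in mutants and 22.9, 28.9 and 26.9 CPM in siblings (log2 fold change −3.87 ± 0.26, adjusted p = 0.0024). Several transcription factors of body and limb patterning followed. hoxa13b, a posterior Hox gene, had 1.1, 0.939 and 1.45 CPM in mutants and 8.68, 14.2 and 9.91 CPM in siblings (−3.22 ± 0.35, 0.0047). SHOX, a homeobox gene of skeletal growth in mammals, had 5.41, 5.27 and 5.9 CPM in mutants and 41.1, 30 and 24.3 CPM in siblings (−2.52 ± 0.28, 0.0051), and OSR2, a zinc finger factor of the odd-skipped family, had 0.773, 0.572 and 1.01 CPM in mutants and 7.65, 9.18 and 4.81 CPM in siblings (−3.19, 0.0087). Mutants were uniformly low in these 4 genes. C1QTNF5 and hoxa13b kept their calls without each library, SHOX lost its call without mutant replicate 1 (0.05) and OSR2 without mutant replicate 1 or 2 (up to 0.066).

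Other genes among the first 15 downward cover enzymes and secreted or membrane proteins. HGD, an enzyme of tyrosine breakdown, was the most abundant, with 87.7, 52.7 and 91.8 CPM in mutants and 346, 312 and 325 CPM in siblings (log2 fold change −2.08 ± 0.27, adjusted p = 0.0096). ZNF385B, a zinc finger gene, had 6.26, 5.11 and 5.4 CPM in mutants and 20.8, 21.5 and 22.1 CPM in siblings (−1.94 ± 0.24, 0.0073). SPON2, a secreted matrix protein, had 1.67, 2.37 and 2.46 CPM in mutants and 19.8, 16 and 9.54 CPM in siblings (−2.80, 0.009). CYP7A1, the first enzyme of bile acid synthesis in liver, and CYP2R1, which hydroxylates vitamin D, were at or under 0.327 CPM in mutants and from 2.97 to 11 CPM in siblings. TTC36 (−2.58, 0.0066) and VSTM4 (ENSDARG00000053186; −3.99, 0.0068) are also among them, as is FZD9, described below. CYP7A1 lost its call without mutant replicate 1 (0.056), HGD, CYP2R1 and TTC36 without mutant replicate 1 or 3 (up to 0.066, 0.06 and 0.053) and VSTM4 without mutant replicate 2 or 3 (up to 0.054). SPON2 and ZNF385B lost theirs without any 1 mutant library (up to 0.068 and 0.072).

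Transcription factors of the neuromast ranged widely in level. EYA1, a transcriptional cofactor required in placodes, had 1574, 1459 and 1537 CPM in mutants and 1326, 1268 and 1472 CPM in siblings, and the summed level of 39 Sox, Pax2, Eya and related genes was 5441, 5995 and 5637 CPM in mutants and 5073, 7902 and 5782 CPM in siblings. SOX2, a support cell and progenitor factor, had 203, 279 and 221 CPM in mutants and 261, 478 and 304 CPM in siblings, groups that overlapped (adjusted p = 0.34). Of 37 tested, none was called higher and 2 were lower. Unlike EYA1, 29 of the 37 had a negative log2 fold change. The list median was −0.31, and −0.12 without sibling replicate 2. hmx3b, a homeobox gene of ear and lateral line, had 0.447, 0.817 and 0.29 CPM in mutants and 3.13, 4.59 and 4.34 CPM in siblings (log2 fold change −2.95, 0.019). DLX5, a distal-less homeobox gene of the placodes, had 11.5, 12.9 and 16.1 CPM in mutants and 51, 69.4 and 30 CPM in siblings (−1.89, 0.027). hmx3b lost its call without mutant replicate 1 or 3 or sibling replicate 3 (up to 0.11) and DLX5 without any 1 mutant library or sibling replicate 1 (up to 0.15). The lower count was 6 without sibling replicate 2 and with the block.

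Genes that set hair cell fate and orientation had 2 of 38 lower and none higher. EMX2, which sets the orientation of hair cells in a neuromast, had 19.2, 17.7 and 17.7 CPM in mutants and 85.3, 59.6 and 39.9 CPM in siblings (log2 fold change −1.76 ± 0.30, adjusted p = 0.025). TBX2 (ENSDARG00000018025), a T-box repressor that in mice separates hair cell types, had 3.13, 1.84 and 3.22 CPM in mutants and 17.5, 6.55 and 9.78 CPM in siblings (−2.04, 0.048). The mutant values were below all sibling values in both. ATOH1, the factor that starts hair cell formation, had 96.4, 192 and 113 CPM in mutants and 167, 401 and 197 CPM in siblings and was not called (−0.93, 0.26). EMX2 lost its call without any 1 mutant library or sibling replicate 1 (up to 0.14) and TBX2 without any 1 library other than sibling replicate 2 (up to 0.17), with 3 of the list lower without sibling replicate 2 and 9 lower and 1 higher with the block.

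Called support cell genes gave no common direction. In the mantle and anteroposterior list 15 of 26 log2 fold changes were positive, with a median of 0.21, and 0.06 without sibling replicate 2. In the central and dorsoventral list 18 of 25 were negative, with a median of −0.58, and −0.01 without sibling replicate 2. Among genes of the mantle and the anterior and posterior poles, PKHD1L1 (ENSDARG00000091116), a large membrane protein also found on hair bundles, had 442, 277 and 411 CPM in mutants and 74.3, 46.3 and 91.2 CPM in siblings (log2 fold change 2.41, adjusted p = 0.011). ovgp1, a chitinase-like gene by its symbol, had 97.9, 92.5 and 83 CPM in mutants and 20.7, 24.7 and 34.5 CPM in siblings (1.78, 0.014). With FGF10 lower, that made 2 higher and 1 lower of 26, 4 and 1 without sibling replicate 2, and 5 and 3 with the block. PKHD1L1 lost its call without mutant replicate 1 or 3 (up to 0.067) and ovgp1 without any 1 mutant library (up to 0.09). Among genes of the central and dorsoventral support cells, 1 of 25 was higher, an SLC1A3 gene (ENSDARG00000043148), a glutamate transporter, with 24, 79 and 61 counts in mutants and 3, 0 and 0 in siblings (0.024), a call that ended without any 1 mutant library or sibling replicate 3 (up to 0.1). The 1 lower was ISL1 itself. This list had 3 higher and 4 lower without sibling replicate 2, and 3 and 7 with the block. The far more abundant SLC1A3 gene (ENSDARG00000104431) had 183, 353 and 171 CPM in mutants and 524, 563 and 527 CPM in siblings, all mutants below all siblings, and was not called (−1.19, 0.091) except without sibling replicate 2 (−1.18, 0.044). Both it and EYA1, SOX2 and ATOH1 above fall outside the rule for named genes and were chosen after their values were seen, as were FOSB, CISH, MMP11, mmp11b and ITGB1.

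In the signalling families that pattern the organ, calls were few. Wnt signals drive proliferation of lateral line cells, and SP5, a direct Wnt target, had 5, 3.84 and 4.56 CPM in mutants and 18.8, 20.6 and 14.3 CPM in siblings (log2 fold change −2.0 ± 0.27, adjusted p = 0.011), the 1 called of 53 Wnt genes. FZD9 (ENSDARG00000014673), a Wnt receptor outside the list, had 4.96, 5.8 and 4.31 CPM in mutants and 19.4, 17.3 and 26.1 CPM in siblings (−2.06, 0.011). Both lost their calls without any 1 mutant library (up to 0.082 and 0.084), and without sibling replicate 2 the list had 3 higher and 8 lower, against 5 and 5 with the block. In the Tgf-beta and Bmp list 3 of 42 were lower and 1 higher. The BAMBI genes, which encode a decoy receptor induced by Bmp, had 15.2, 15.2 and 19.1 CPM in mutants and 57.7, 47.3 and 40.8 CPM in siblings (ENSDARG00000099677; −1.56, 0.017), and 25, 30.4 and 30.5 CPM in mutants and 59.3, 70 and 55.9 CPM in siblings (ENSDARG00000055381; −1.11, 0.039). The ligand gene BMP2 (ENSDARG00000013409) had 8.21, 10.33 and 8.73 CPM in mutants and 19.6, 20.5 and 22.7 CPM in siblings (−1.20, 0.036). TGFBR2 (ENSDARG00000059363), a receptor, had 12.6, 7.39 and 8.26 CPM in mutants and 2.81, 1.08 and 1.44 CPM in siblings (2.4, 0.029). No call in this list was left without any 1 mutant library (up to 0.12, 0.22, 0.22 and 0.13 in the order given), 1 was left in each direction without sibling replicate 1 and 1 lower without sibling replicate 3, and 5 higher and 3 lower were called without sibling replicate 2, against 8 and 4 with the block.

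Notch signalling, which holds support cells back from becoming hair cells, had no called gene among 37, while 1 was lower without sibling replicate 2 and 3 were lower and 2 higher with the block. NOTCH1 (ENSDARG00000103554) had 310, 258 and 299 CPM in mutants and 348, 175 and 324 CPM in siblings, and the modifier LFNG had 267, 400 and 289 CPM in mutants and 306, 342 and 319 CPM in siblings, overlapping in each case (adjusted p = 0.96 and 0.98). Proliferation genes were not called either. In the S phase list 41 of 48 log2 fold changes were below 0, with a median of −0.31, and in the list of G2 and mitosis 38 of 43, with a median of −0.30. MCM2, a replication helicase subunit, had 106, 123 and 116 CPM in mutants and 176, 98.4 and 178 CPM in siblings, where siblings 1 and 3 were above the mutants and sibling 2 below them (−0.39, 0.49). Without sibling replicate 2 it was lower (−0.65, 0.032), the 1 called of its list, and TOP2A, a mitotic topoisomerase, was the 1 called of the other (−0.76, 0.024). With that library left out, 3.71% of all tested genes were lower. A single call in a list of that size is therefore not read as a difference in proliferation. Of 70 ribosome biogenesis factors none was called with or without that library, and their median was 0.08.

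No gene of the hair cell synapse, stereocilia and mechanotransduction lists was called at 3 h by the unpaired test, except 1 stereocilia gene. Hair cell specification genes are given above. The abundant pvalb8 and s100t were lower in the mutant of every same-numbered pair, although the labels do not pair libraries by number. pvalb8, a calcium-binding protein and among the most abundant hair cell transcripts, had 994, 1556 and 736 CPM in mutants and 1714, 4681 and 1448 CPM in siblings (log2 fold change −1.26 ± 0.49, adjusted p = 0.22). s100t, another calcium-binding protein, had 519, 829 and 397 CPM in mutants and 817, 2771 and 723 CPM in siblings (−1.30, 0.25). For both genes mutant replicate 2 reached into the sibling range, and sibling replicate 2 lay far above every other library. Without sibling replicate 2 neither was called, with a log2 fold change of −0.55 for pvalb8 (adjusted p = 0.27) and −0.43 for s100t (0.39). With the replicate block both were called lower, with a log2 fold change of −1.12 and an adjusted p of 0.014 for pvalb8 and of −1.08 and 0.026 for s100t. None of 46 tested synapse, calcium and channel genes and none of 12 mechanotransduction genes was called, with medians of −0.63 and −0.65, and 1 of 43 stereocilia genes was higher. That was MYO1C, a myosin also used by many epithelial cells, with 163, 115 and 150 CPM in mutants and 54.2, 46.3 and 69.9 CPM in siblings (1.33, 0.035), a call that ended without any 1 library other than sibling replicate 2 (up to 0.18). Without sibling replicate 2, 7 synapse genes and 3 stereocilia genes were lower and the medians of the synapse and mechanotransduction lists were −0.48 and −0.52, while the block gave 8 synapse, 4 stereocilia and 1 mechanotransduction genes lower. In homeostasis 27 of 45 synapse, 26 of 43 stereocilia and 7 of 12 mechanotransduction genes were called lower in mutants. Of all tested genes, 6.4% were called lower in homeostasis and 0.862% at 3 h, so the counts of both times are not directly comparable. The list medians in homeostasis were −0.94, −0.73 and −0.75, against −0.63, −0.25 and −0.65 at 3 h over the 6 libraries. All 12 mechanotransduction genes had a negative log2 fold change at 3 h, so fewer calls there do not show that the difference was gone. With all 12 libraries scaled together, the synapse list summed to 17970, 21470 and 16730 CPM in mutants and 41300, 34680 and 41830 CPM in siblings in homeostasis, and to 2231, 3327 and 1739 CPM in mutants and 3783, 9686 and 3230 CPM in siblings at 3 h. In sorted bulk samples, fewer cells of a type and less of its RNA in each cell cannot be told apart.

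**Figure D4:**
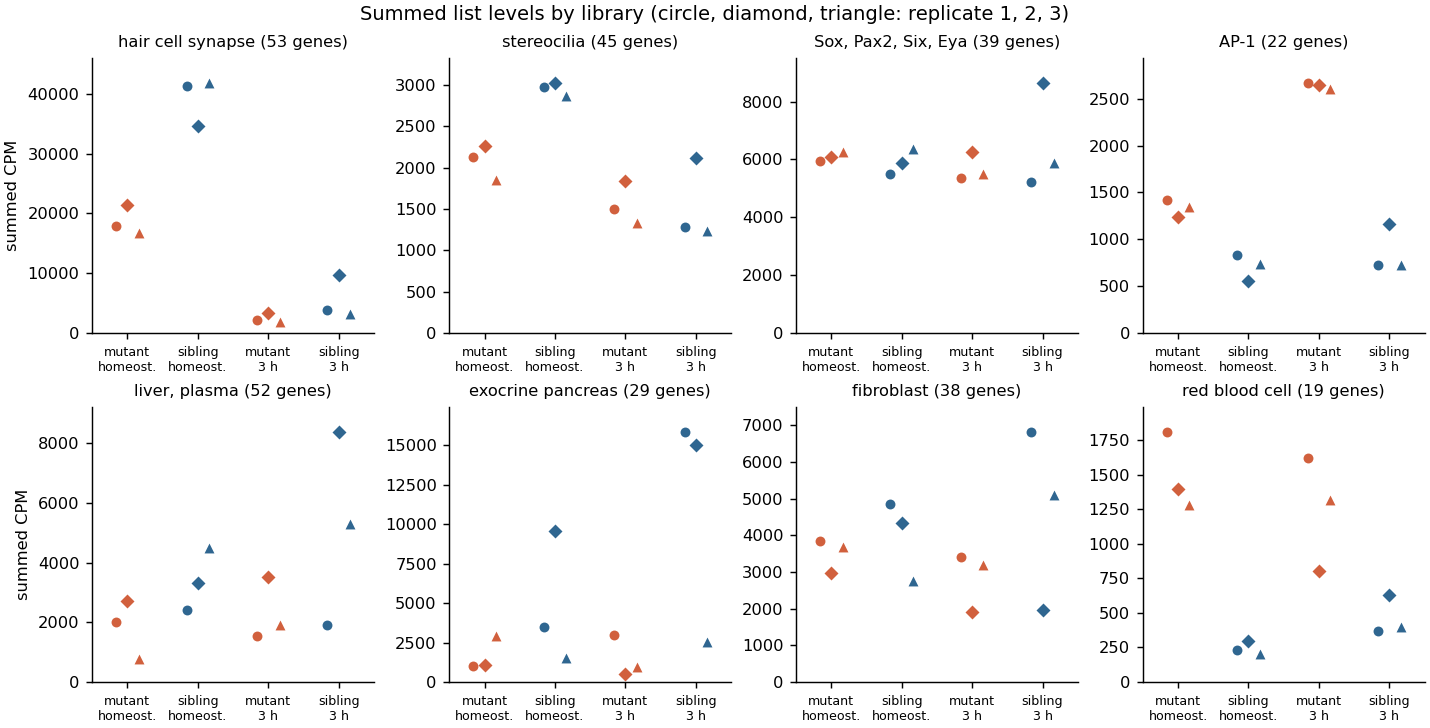
Summed CPM of 8 gene lists in all 12 RNA-seq libraries, scaled together, with mutants in orange and siblings in blue, first in homeostasis and then at 3 h. The synapse list lies at 9686 CPM in sibling replicate 2 at 3 h (diamond), against 3783 and 3230 CPM in the other siblings. The AP-1 list lies at 2601 to 2668 CPM in mutants at 3 h, above 724 to 1159 CPM in siblings.

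Markers of other cells that the sort could hold also differed. Red blood cell genes were higher in mutants: hbae5, an embryonic haemoglobin, had 56, 27.3 and 47.5 CPM in mutants and 1.03, 1.24 and 1.8 CPM in siblings (log2 fold change 5.00 ± 0.40, adjusted p = 0.0024). alas2, which starts haem synthesis in red cells, had 70, 35.1 and 60.7 CPM in mutants and 10.7, 4.67 and 15.6 CPM in siblings (2.42, 0.034), and SLC4A1 (ENSDARG00000012881), the red cell anion exchanger, had 157, 75.4 and 162 CPM in mutants and 31.4, 9.02 and 28.6 CPM in siblings (2.51, 0.04). All 16 tested members had a positive fold change, with a median of 1.23, 3 were called, and the sums were 1640, 768 and 1346 CPM in mutants and 356, 574 and 391 CPM in siblings. alas2 and SLC4A1 lost their calls without any 1 library other than sibling replicate 2 (up to 0.14 and 0.16), hbae5 kept its call throughout, and 7 were called without sibling replicate 2 and with the block. The same list was higher in mutants in homeostasis, with 13 of 17 members called, against 4.25% of all tested genes.

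Exocrine pancreas and liver genes ran the other way. All 24 tested pancreas genes had a negative log2 fold change, with a median of −2.59 and 3 called. The trypsin gene prss59.1 had 107, 22.3 and 59.6 CPM in mutants and 1416, 1179 and 243 CPM in siblings (−3.91, adjusted p = 0.038), amy2a, an amylase, had 10.16, 1.35 and 2.25 CPM in mutants and 226, 66.4 and 42.3 CPM in siblings (−4.60, 0.042), and PLA2G1B, a digestive phospholipase, fell with them (−5.01, 0.034). The sums were 2992, 488 and 957 CPM in mutants and 15350, 13760 and 2521 CPM in siblings, so that the lowest sibling lay below the highest mutant. The 3 calls ended without any 1 mutant library or sibling replicate 1, and amy2a also without sibling replicate 3 (up to 0.18, 0.19 and 0.17 in the order given), while 6 were lower and 1 higher without sibling replicate 2 and 16 lower with the block. Among 45 liver and plasma genes 3 were lower. fetub, a plasma fetuin, had 42.4, 74.3 and 60.2 CPM in mutants and 299, 1098 and 975 CPM in siblings (−3.75, 0.011), fabp10a, the liver fatty acid binding protein, had 13.3, 17.4 and 16.3 CPM in mutants and 46.6, 332 and 169 CPM in siblings (−3.54, 0.027), and apobb.2, an apolipoprotein B gene, was under 1.9 CPM everywhere (−3.55, 0.039). fetub lost its call without any 1 mutant library (up to 0.08), fabp10a also without sibling replicate 3 (0.14 at most), and apobb.2 without any 1 library but sibling replicate 2 (up to 0.18). Without sibling replicate 2, 6 were lower and 1 higher, and the block gave 12 and 2.

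Lists of further cell types held few calls. Of 12 tested retina and lens genes, 10 had a negative log2 fold change, with a median of −0.84, and 1 was called each way. The 1 higher, against most of its list, was PDE6H, a phosphodiesterase subunit of cones. It had 47, 22 and 25 counts in mutants and 2, 3 and 0 in siblings (adjusted p = 0.038). That call ended without any 1 library other than sibling replicate 2 (up to 0.17). Endothelial markers had 3 of 22 higher and a median of 0.83, with flt1, a Vegf receptor, at 10.33, 11.9 and 14.2 CPM in mutants and 4.23, 4.03 and 2.57 CPM in siblings (log2 fold change 1.75, 0.026). sox18 and EGFL7 were the others (1.53 and 1.40). In muscle, 3 of 39 were higher, the myosin heavy chain genes myhz1.1 and myhz1.2 and TNNI2 (ENSDARG00000035958), an inhibitory troponin. myhz1.2 had 4.15, 4.45 and 4.53 CPM in mutants and 0.0968, 0.2 and 0.467 CPM in siblings (4.08, 0.011). The 3 endothelial calls ended without any 1 library other than sibling replicate 2 (up to 0.2), the muscle calls without any 1 mutant library and, for myhz1.1 and TNNI2, sibling replicate 3 (up to 0.075, 0.061 and 0.091), and 6 were higher in each list without sibling replicate 2. With the block 7 endothelial genes were higher, and 4 muscle genes were higher and 1 lower.

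In glia, egr2a, a Schwann cell factor that is also an immediate early gene, had 23.8, 29 and 23 CPM in mutants and 5.17, 6.63 and 4.27 CPM in siblings (log2 fold change 2.24, adjusted p = 0.0073). Its call held throughout. SLC1A2 (ENSDARG00000102453), a glutamate transporter, rose with it, as 2 of 18 (4.64, 0.032), but not without any 1 mutant library or sibling replicate 1 (up to 0.14). tubb5 among 35 neuron genes (1.53, 0.03) and ca15b, a carbonic anhydrase, among 19 ionocyte genes (1.24, 0.026) were the only calls of their lists, and both ended without any 1 library other than sibling replicate 2 (up to 0.17 and 0.14). As 2.17% of all tested genes were called higher, 1 call in a list of that size is not read as a difference of the cell type. Without sibling replicate 2 the counts higher and lower were 5 and 2 for glia, 4 and 0 for neurons and 1 and 3 for ionocytes, and with the block 6 and 3, 4 and 0, and 1 and 2. No pigment, epidermis, leukocyte or fibroblast marker was called over the 6 libraries. When sibling replicate 2 was dropped, 2 epidermis markers were higher and 3 lower and 1 leukocyte marker each way, while the block gave 3 and 3 for epidermis and 3 higher and 9 lower for leukocytes. With that library dropped, 5.56% of all tested genes were higher and 3.71% lower. Leukocyte markers summed to 1223, 1396 and 1024 CPM in mutants and 1215, 3016 and 1170 CPM in siblings, with sibling replicate 2 alone far above the rest, and apoeb, a macrophage-enriched apolipoprotein, had 522 CPM there against at most 271 in the other 5. Fibroblast markers summed to 3452, 1817 and 3280 CPM in mutants and 6604, 1786 and 5026 CPM in siblings, so that replicate 2 of both genotypes was low. col1a1a, a collagen gene, had 784, 242 and 813 CPM in mutants and 2105, 262 and 2292 CPM in siblings (−1.34, 0.38). Without sibling replicate 2, 10 of the fibroblast genes were lower in mutants, and with the block 7. The part of these other cells in the differences above was not tested.

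The genotype difference at 3 h was then set beside the one in homeostasis, which rests on 6 other libraries. In homeostasis 885 of 20816 genes were higher in mutants (4.25%) and 1332 lower (6.4%). Of the 447 genes higher at 3 h, 441 were tested there and 408 of those had a positive log2 fold change, or 92.5%, against 50.5% of all tested genes. Of the 178 lower, 169 of 172 were negative, or 98.3%, against 49.5%. Called in both were 224 of the higher genes, 50.1% of the calls at 3 h and 25.3% of those in homeostasis, and 73 of the lower, 41% and 5.48%. Opposite calls numbered 2 and 0. FOSL1 (log2 fold change 3.47 in homeostasis and 3.84 at 3 h), ODC1 (2.49 and 2.76), CEBPB (2.32 and 2.87), lepb (6.75 and 6.45) and both ADM genes were among those already higher before the drug.

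Other genes had a wider gap between the genotypes after neomycin than before it. PTGS2 (ENSDARG00000010276) had 26.6, 40.7 and 24 CPM in mutants and 16.9, 32.3 and 24.9 CPM in siblings in homeostasis, groups that overlapped (log2 fold change 0.30, adjusted p = 0.56), against the 3.87 at 3 h given above. PLEK2 had 20.4, 19.2 and 18 CPM in mutants and 10.6, 9.83 and 12.4 CPM in siblings before treatment (0.81 ± 0.15, 0.011), a smaller gap than the 4.11 after it. ppp1r15b had 14.6, 13.7 and 10.6 CPM in mutants and 16.3, 13.1 and 17.4 CPM in siblings in homeostasis (−0.26, 0.44). A test of the difference between both gaps, the interaction of genotype and neomycin over all 12 libraries, called 23 of 22000 genes (0.105%), of which 18 are among the 447 and none among the 178. It was 3.5 ± 0.36 for PTGS2, 3.23 ± 0.32 for PLEK2 and 2.72 ± 0.33 for ppp1r15b (adjusted p = 0.003, 0.003 and 0.01). IRAK3 (2.04, 0.017) and BAG3 (1.83, 0.047) were called as well. The 23 became 190 without sibling replicate 2 at 3 h, 14 and 18 without siblings 1 and 3 at 3 h, 4, 7 and 4 without the mutant replicates at 3 h, and 3 to 7 without any 1 library in homeostasis. No hair cell gene of the mechanotransduction, stereocilia and synapse lists was called for the interaction. With 0.105% of all tested genes called, that does not show that their gap was the same before and after the drug.

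**Figure D5:**
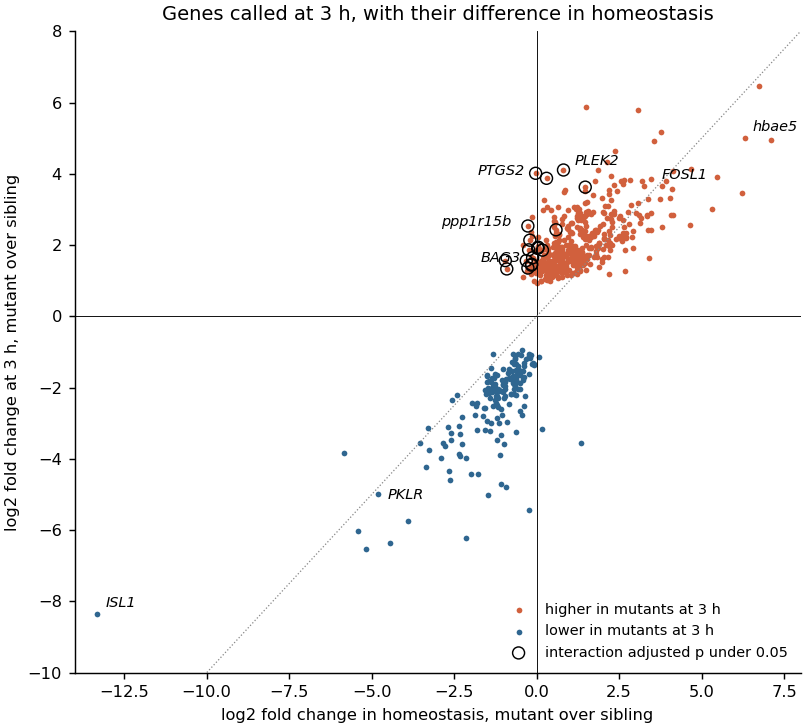
Genes called at 3 h and tested in homeostasis, with the log2 fold change of mutant over sibling in homeostasis on the x axis and at 3 h on the y axis. Orange points were higher and blue points lower in mutants at 3 h, circles mark an interaction adjusted p under 0.05, and the dotted line is equality. PTGS2 lies at 0.30 and 3.87, near the vertical zero line, and FOSL1 at 3.47 and 3.84, near equality.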

How the data were processed

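RNA-seq of mCherry-positive cells was analysed in 12 libraries, 3 per group. Group and replicate number came from the sample titles. Nothing says that replicates are separate clutches, so a p-value reflects only how these libraries vary, which may be technical. Trypsin-dissociated cells went from the sorter into Trizol and then into SMART-Seq v4, per the labels' protocols. As that kit keeps no strand, a gene and its antisense or overlapping neighbour cannot be told apart. The authors deposited whole-number counts per Ensembl gene without normalization. Per the submitters' processing notes, STAR 2.7.3a, bcl2fastq 2.18, RSEM, Bowtie2 and the build danRer11 are named, in roles not stated, and the annotation is not given in the sources used here. Entries that name no gene (4 beside 32520 genes, 28.18% to 34.37% of reads at 3 h) were left out. Multimapping reads have an entry of their own outside the genes, which leaves values of near-identical paralogs uncertain. Counts are of amplified reads without molecular identifiers, so the interval for ISL1 covers counting error only.

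Counts were filtered with filterByExpr, scaled by TMM and tested two-sided with edgeR 4.0.16's quasi-likelihood test (limma 3.58.1, R 4.3.3), mutant over sibling on the 6 libraries at 3 h, with Benjamini-Hochberg adjustment over 20641 genes. Homeostasis (20816 genes) was fitted alone, the interaction on 12 libraries (22000). Standard errors are the fold change over the square root of F, and CPM uses TMM-scaled library sizes. On simulated data, 50 of 98 genes changed by a log2 of 2, none of 97 changed by 1 and 1 of 19975 unchanged genes were called at 3 h. Deviations from group means correlated between same-numbered libraries (0.35, 0.501 and 0.227). Between libraries of different number the correlations ran from −0.457 to 0.179, the last for mutant 3 and sibling 1. Mutant 1 and sibling 3 also correlated positively (0.076), so these values do not show pairing by number. The labels give no pairing either, and the replicate block was fitted only as an alternative. Other alternatives were DESeq2 1.42.0, limma voom with quality weights, other scalings and filters, and each library left out. No replicate pair was alike within counting noise.

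Symbols came from a name table (29201 IDs). 1719 symbols are shared by 6136 IDs and are printed with the ID. The members and the 45 gene lists were chosen with earlier results of these data known. Of 1386 list names, 1274 matched a symbol, 116 of them by a paralog suffix only. Named are the isl genes, up to 15 genes each way with the smallest adjusted p (absolute log2 fold change at least 1, groups apart, an informative symbol, also called without sibling replicate 2), and per list up to 4 called members, or up to 2 abundant ones where none was called. Some items that the rule names are not reported here.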

Additional observations from a re-analysis of the deposited data

Results flagged for a closer look

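For 5 named genes the gap between mutants and siblings at 3 h differed from that in homeostasis by a test of the difference itself, edgeR's quasi-likelihood test of the interaction over 12 libraries. The interaction was 3.5 (log2) for PTGS2 ENSDARG00000010276 and 3.23 for PLEK2, with an adjusted p of 0.003 each. It was 2.72 for ppp1r15b (0.01), 2.04 for IRAK3 (0.017) and 1.83 for BAG3 (0.047). In the 3 h samples all 3 mutants were above all 3 siblings for each of the 5, and in homeostasis the log2 fold changes were 0.30, 0.81, −0.26, −0.24 and 0.05 in the same order.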

How the results depend on the processing

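Counts of genes called at 3 h (447 higher, 178 lower) moved with the model of the spread and with the libraries kept. They were 1156 and 951 with DESeq2, 2071 and 1698 with limma voom and quality weights, 1384 and 962 with the replicate block, and 1077 and 1074 with all 12 libraries in 1 fit. Both libraries numbered 2 deviated together, and without them, a choice made after seeing the data, 1872 were higher and 1220 lower. With library totals in place of TMM factors, 299 were higher and 108 lower. Leaving out 1 library gave 85 to 1189 higher and 6 to 792 lower at 3 h, 1107 to 2318 calls in homeostasis (2217 over all 6) and 3 to 190 for the interaction (23 over all 12), which had 7 with library totals and 374 with DESeq2. Of the 105 called genes that the naming rule selects, library totals ended the calls of 18: PLA2G1B, prss59.1, amy2a, SLC4A1, alas2, BMP2, TGFBR2, TBX2, FGF10, ldlrb, HMGCS1, PDE6H, sox18, EGFL7, MYO1C, apobb.2, hspb6 and GADD45A (adjusted p from 0.051 to 0.088). None of the 105 changed sign under any alternative that was run. Of the 26 genes the rule names that were not called, 12 changed sign under at least 1, at an adjusted p of 0.28 or more. The replicate block ended none of the 105 calls and added those of pvalb8 and s100t, which were not called without sibling replicate 2. The causes of these moves were not tested. In simulated libraries of this depth, with each gene's estimated spread, the test found 51% of log2 changes of 2 and none of 1. Those libraries were drawn independently, none was set apart, and fewer genes were changed than were called here. The shares may therefore differ for these data, and genes not called are not shown to be alike.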
